A study of Rattus norvegicus with 11 samples.

Results

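The heat shock chaperones are described here across the ileum of control rats, rats with severe acute pancreatitis (SAP) and rats with SAP that were given JZL184. The 10 genes Hspa1a, Hspa1b, Hspa8, Hsp90aa1, Hsp90ab1, Hsph1, Dnajb1, Hspb1, Hspd1 and Hspe1 were looked up by gene symbol, and 9 of them were found among the 24481 genes with read counts. No row of the tables used here carried the symbol Hspa1a. The row LOC108348108, described in the table as heat shock 70 kDa protein 1A, lies on chromosome 20 like Hspa1b, and its values are given beside those of Hspa1b. RefSeq's newer annotation (GRCr8) gives the gene number of LOC108348108 the symbol Hspa1b and lists Hspa1b as a synonym of Hspa1a, so that which copy a row stands for is uncertain. These copies are nearly identical, and only uniquely aligned reads were counted, so reads of either copy may have been lost or split.

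RNA was sequenced from the ileum of 11 SD rats, 3 control, 4 SAP and 4 JZL184 rats, with ages of 6 to 8 weeks. SAP was induced by injecting 3% sodium taurocholate into the pancreatic duct, and rats were assigned to groups 24 h after surgery. The JZL184 group then received an intraperitoneal injection of JZL184, an inhibitor of the enzyme monoacylglycerol lipase (MAGL), at 10 mg/kg, the control and SAP groups received the saline, ethanol and Tween-80 vehicle, and all rats were killed after a further 24 h. Whether the control rats had a sham operation is not stated in the sources used here. There was no group given JZL184 without SAP. The labels name a control plasmid for the control rats and the sample titles name oil for the SAP rats, where the methods describe vehicle in both. The labels also name an intestinal epithelial cell, but the source was ileal tissue. All 8 smooth muscle markers, all 6 fibroblast markers and all 8 T and B cell markers had a mean above 1 FPKM (fragments per kilobase of gene, scaled to the depth of the library) in each group, so the RNA was not that of epithelial cells alone.

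Between 26341299 and 33847135 reads per library lay on genes. The first and second control libraries were close to each other, almost within counting noise, with a chi-square per gene of 2.81 against 77.5 to 563 in the other pairs of libraries within a group. They were counted as 1 sample, called control 1-2, which left n = 2 in the control group. SAP libraries 1 and 2 stood apart from SAP libraries 3 and 4: the chi-square per gene was 85.5 and 99.1 within these pairs and 337 to 563 between them. SAP library 2 had 20 reads on Y-linked genes, where the other libraries had 1222 to 4665, and 7826 reads on Xist, where the others had at most 56. This library goes against the male rats that the methods describe. P-values measure the spread between these samples.

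Heat shock chaperones bind unfolded or partly folded proteins and help them to fold, to assemble or to be degraded. HSP70 proteins work in a cycle in which J-domain proteins deliver clients and stimulate the ATPase, and nucleotide exchange factors such as HSP110 release them, while HSP90 completes the folding of kinases and steroid receptors, and HSP60 with HSP10 folds proteins inside mitochondria. The inducible members are activated by the heat shock factor HSF1, which binds inverted repeats of the unit nGAAn, the heat shock element, in their promoters. In the intestine these proteins are known to protect the epithelium against injury and inflammation.

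The heat shock elements found close before the members' starts are shown because HSF1 recognizes this sequence. In the RefSeq promoters of GRCr8, 7 of the 9 genes had an entry. Hsp90aa1 and Hspa1b had none. The motif was searched as GAANNTTC or TTCNNGAA, each of which is its own reverse complement, so that both strands were covered, in the 250 bases before the start of each gene. Of the 7 genes, 6 held at least 1 match, against 13.5% of all 33469 promoters. Matches that overlap to make 3 inverted units in a row were found in 4 of them, Hspa8, Hspd1, Hspe1 and Hsph1, against 0.663% of all promoters. No match was found in Hsp90ab1. The entry of Hspa1a, which has no row in the tables, also held none, so that 6 of 8 entries of listed genes had a match. The search covered only exact matches in these 250 bases, so a gene without a match is not shown to lack the element. The windows of 30 bases are given 5′ to 3′ on the gene's own strand, with the matched letters in capitals.
Hspa8, distal, chr8:50080292-50080321, plus strand: ggcgagcgtGAAAGTTCCAGAAcgctgcgg
Hspa8, proximal, chr8:50080450-50080479, plus strand: gcggaacccTTCTGGAAGGTTCtaagacag
Hspd1, chr9:64084256-64084285, minus strand: ggggccTTCCGGAAGGTTCTAGAAccgagc
Hspe1, chr9:64084256-64084285, plus strand: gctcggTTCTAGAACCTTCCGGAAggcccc
Hsph1, distal, chr12:10427252-10427281, plus strand: gggtggaatctTTCTCGAAggctcgagaag
Hsph1, proximal, chr12:10427323-10427352, plus strand: tgccgcagaTTCTGGAAAGTTCtcctcagt
Hspb1, distal, chr12:26432412-26432441, minus strand: cttcaactagaGAAGTTTCcagatgggggc
Hspb1, proximal, chr12:26432392-26432421, minus strand: agatgggggcaGAACCTTCctggccctgcc
Dnajb1, chr19:41431142-41431171, minus strand: cgacgcatcgggaggggcgGAAGGTTCtgg

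Hspd1 and Hspe1 lie head to head, with 289 bases between their starts, and the 18 capital letters printed for them are the same bases read on opposite strands. The element lay 65 to 48 bases before the start of Hspe1 and 242 to 225 bases before that of Hspd1. The proximal elements of Hspa8 and Hsph1 lay 55 to 43 and 36 to 24 bases before the start, and that of Dnajb1 11 to 4 bases before it. A match of letters is a description of the sequence and does not show that HSF1 was bound in these rats.

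The 9 genes spanned a wide range of levels. Hspa8, the constitutive cytosolic HSP70, was the highest with a median of 1766 FPKM over the 10 samples, followed by Hsp90ab1, the constitutive HSP90, at 1336 FPKM. The mitochondrial chaperonins Hspe1 and Hspd1 followed at 485 and 360 FPKM, and Hsp90aa1, the inducible HSP90, at 196 FPKM. Hsph1 (20.1 FPKM), Hspb1 (19.99 FPKM) and Dnajb1 (15.7 FPKM) were close to each other, with ranges that overlapped. Hspa1b was the lowest at 5.16 FPKM. The inducible genes varied most between samples, with the highest sample 16.1 times the lowest for Hspa1b and 15.02 times for Hsph1, against 1.60 times for Hsp90ab1. The ranges of Hspa8 (910 to 2807 FPKM) and Hsp90ab1 (1032 to 1646 FPKM) overlapped, as did those of Hspe1, Hspd1 and Hsp90aa1. The lowest value of these 5 genes, 95.0 FPKM for Hsp90aa1, was above the highest of the other 4, 76.3 FPKM for Hspb1. The 9 genes together took 1.01% to 1.18% of the reads in the control libraries, 0.778% to 1.37% in the SAP libraries and 0.715% to 0.868% in the JZL184 libraries.

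**Figure D1:**
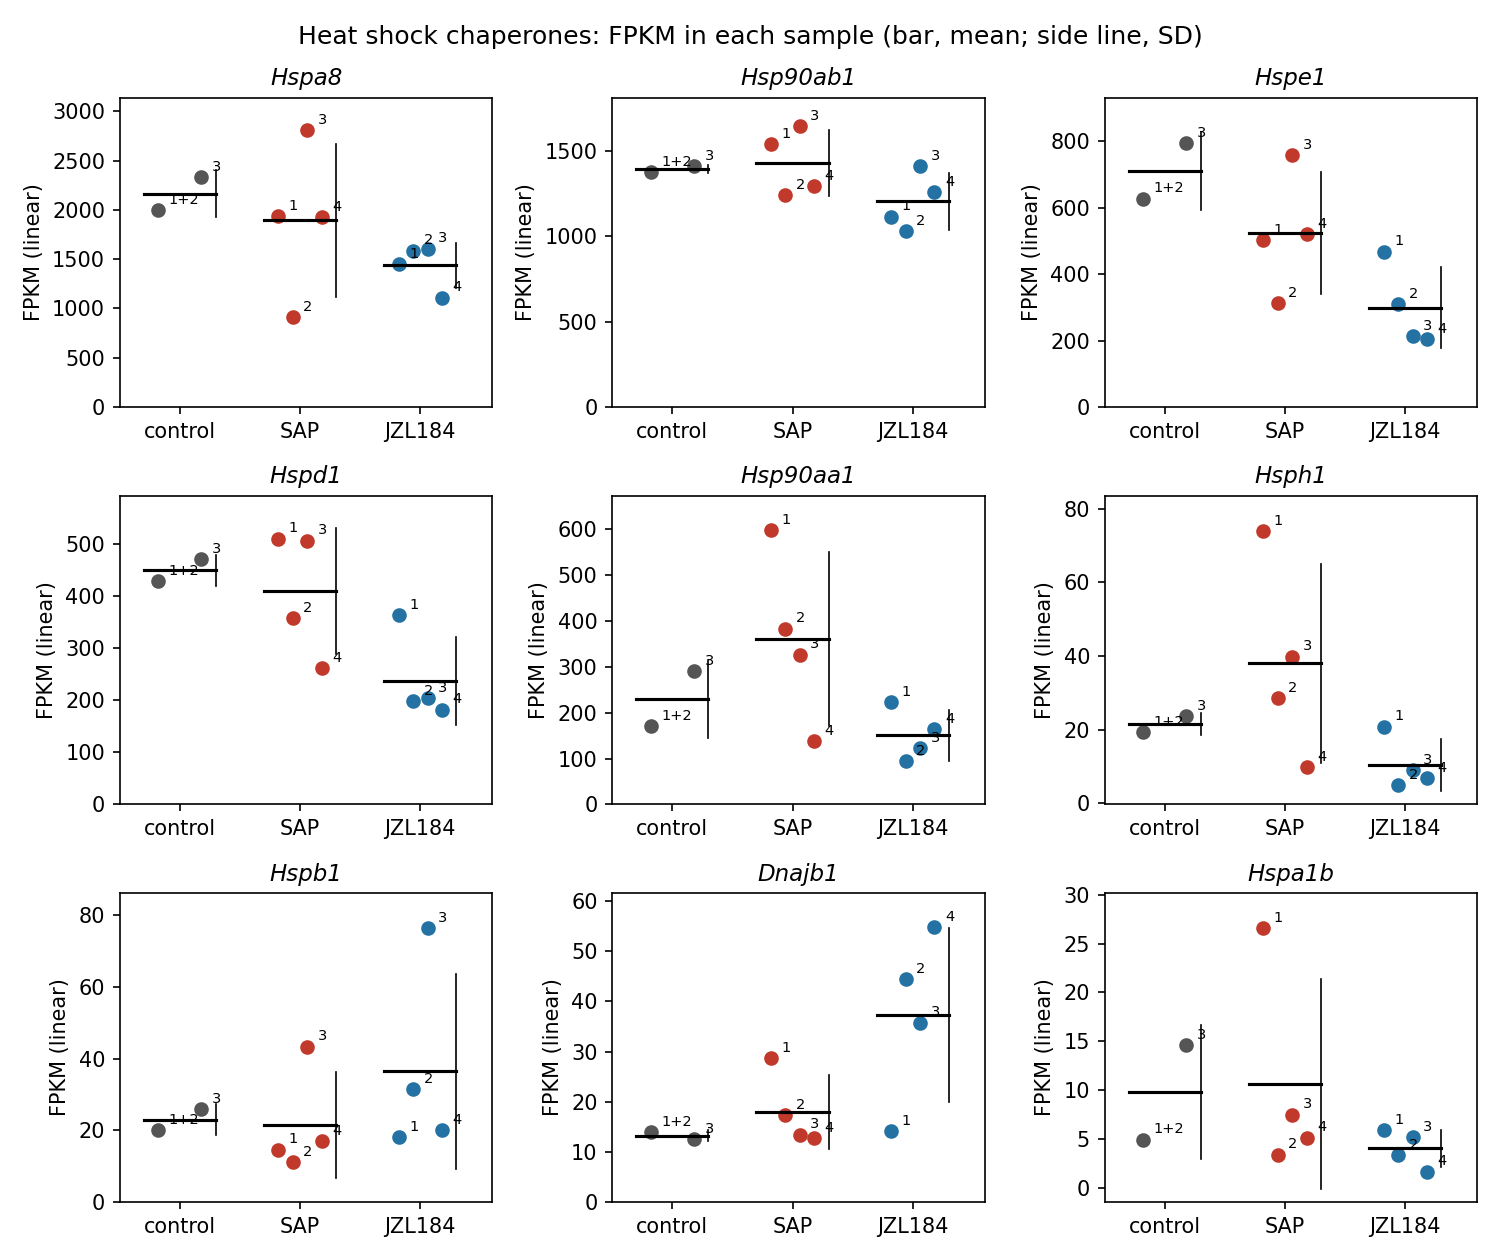
Each panel shows 1 gene, with FPKM on a linear vertical axis and the control, SAP and JZL184 groups on the horizontal axis. Points are samples with their library number (1+2 is the merged control sample), the horizontal bar is the mean and the line at its side the SD. JZL184 samples 2 to 4 lay below both control samples for Hspd1 and Hspe1 and above all other samples for Dnajb1, while JZL184 sample 1 lay nearer to the controls.

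Among the HSP70 genes, the constitutive Hspa8 was lower in every JZL184 sample than in either control sample, and the inducible Hspa1b had wide ranges that overlapped in all groups. Hspa8 stood at 1994 and 2330 FPKM in control 1-2 and control 3. It stood at 1936, 910, 2807 and 1925 FPKM in SAP samples 1 to 4, and at 1450.0, 1586, 1607 and 1109.8 FPKM in JZL184 samples 1 to 4. The SAP samples thus lay on both sides of the controls and of the JZL184 samples. The mean of Hspa8 was 1438 ± 230 FPKM in the JZL184 group (SD, n = 4), 1895 ± 776 in the SAP group (n = 4) and 2162 ± 237 in the control group (n = 2). The log2 fold change from control to JZL184 was -0.62 with a standard error (SE) of 0.31, which did not pass the threshold with edgeR's quasi-likelihood test (adjusted p = 0.238). The exact permutation test gave p = 0.0667 for this difference, the smallest that 4 samples against 2 can give. In normalized counts, 38.3% of all genes were separate between JZL184 and control, in either direction.

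Hspa1b, the HSP70 that stress induces most, stood at 4.92 and 14.6 FPKM in the control samples. It stood at 26.6, 3.39, 7.47 and 5.11 FPKM in SAP samples 1 to 4 and at 5.88, 3.30, 5.20 and 1.65 FPKM in JZL184 samples 1 to 4. The highest sample was SAP 1 and the lowest JZL184 4, and every group overlapped the others. The log2 fold change of Hspa1b from control to SAP was -0.05 (SE 0.81, adjusted p = 0.977), followed by -1.23 in JZL184 against SAP (SE 0.61, adjusted p = 0.266) and -1.32 in JZL184 against control (SE 0.51, adjusted p = 0.149). Leaving out control 3 moved the last of these to -0.43. The copy LOC108348108 was also highest in SAP 1, at 10.6 FPKM, against 0.65 to 2.11 in the other SAP samples, 0.31 to 1.37 in the JZL184 samples and 0.62 and 2.36 in the control samples. Its reads came to 7.63% to 33.6% of the reads of Hspa1b.

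The cochaperones of the HSP70 cycle gave opposite differences between JZL184 and the other groups. Dnajb1, the J-domain protein that hands clients to HSP70, had higher means in the JZL184 group, and Hsph1, the HSP110 that drives nucleotide exchange, had lower ones. Dnajb1 stood at 14.0 and 12.5 FPKM in the control samples and at 28.6, 17.3, 13.4 and 12.7 FPKM in SAP samples 1 to 4. It stood at 14.2, 44.4, 35.8 and 54.9 FPKM in JZL184 samples 1 to 4. JZL184 samples 2 to 4 were above every SAP and control sample, and JZL184 1 was at the level of the controls. The mean of Dnajb1 was 37.3 ± 17.3 FPKM in the JZL184 group (SD, n = 4), 18.01 ± 7.36 in the SAP group (n = 4) and 13.2 ± 1.04 in the control group (n = 2). Its log2 fold change with edgeR was 1.27 in JZL184 against SAP (SE 0.43, adjusted p = 0.158) and 1.49 in JZL184 against control (SE 0.54, adjusted p = 0.137). Without JZL184 1 these were 1.57 (adjusted p = 0.0386) and 1.77 (adjusted p = 0.0209), both past the threshold, and over all alternatives the adjusted p ran from 0.0386 to 0.347 and from 0.00864 to 0.613. The fits without JZL184 1 called 4.21% of all genes against SAP and 12.0% against control. JZL184 1 was the JZL184 sample nearest to the controls, so leaving it out by itself enlarges the difference. With JZL184 2, 3 or 4 left out instead, no member was called in either comparison. From control to SAP the log2 fold change of Dnajb1 was 0.25 (SE 0.37, adjusted p = 0.727).

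Hsph1 stood at 19.4 and 23.6 FPKM in the control samples. SAP samples 1 to 4 had 73.9, 28.5, 39.8 and 9.73 FPKM, and JZL184 samples 1 to 4 had 20.8, 4.92, 8.98 and 6.79 FPKM. SAP samples 1 to 3 were above both controls and SAP 4 was below them. JZL184 samples 2 to 4 were the lowest of all samples, and JZL184 1 was between the control samples. Its mean was 10.4 ± 7.16 FPKM in the JZL184 group (SD, n = 4) and 38.0 ± 27.0 in the SAP group (n = 4). From SAP to JZL184 the log2 fold change was -1.71 (SE 0.57), the largest in size among the 9 genes in any of the 3 comparisons. It was not called by edgeR (adjusted p = 0.151) and was called by DESeq2 (adjusted p = 0.0388), and the adjusted p ran from 0.0385 to 0.350 over the alternatives. The exact permutation test gave p = 0.0571, where 0.0286 is the smallest possible. From control to SAP the log2 fold change of Hsph1 was 0.62 (SE 0.65, adjusted p = 0.622), and from control to JZL184 it was -1.13 (SE 0.47, adjusted p = 0.175). Without JZL184 1, the last was -1.66 (adjusted p = 0.0158), and over the alternatives its adjusted p ran up to 0.617. The fit without JZL184 1 called 12.0% of all genes. As a description chosen after the values were seen, the FPKM of Dnajb1 over that of Hsph1 was 9.02, 3.98 and 8.08 in JZL184 samples 2 to 4, 0.680 in JZL184 1 and 0.337 to 1.30 in the SAP and control samples.

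Of the HSP90 genes, the inducible Hsp90aa1 had a wider range over the 10 samples (6.29 times from lowest to highest) than the constitutive Hsp90ab1 (1.60 times), and neither passed the test in any comparison. Hsp90aa1 stood at 170.4 and 290.7 FPKM in the control samples, at 598, 383, 326 and 138 FPKM in SAP samples 1 to 4, and at 222, 95.0, 123 and 163 FPKM in JZL184 samples 1 to 4. SAP samples 1 to 3 were above every control and JZL184 sample, and SAP 4 was lower than both controls. The log2 fold change of Hsp90aa1 in JZL184 against SAP was -1.07 (SE 0.40, unadjusted p = 0.0231, adjusted p = 0.181 with edgeR). It was 0.46 in SAP against control (SE 0.51, adjusted p = 0.644) and -0.65 in JZL184 against control (SE 0.37, adjusted p = 0.289). Hsp90ab1 stood at 1377 and 1409.7 FPKM in the control samples, between 1243 and 1646 FPKM in the SAP samples and between 1032 and 1413 FPKM in the JZL184 samples. Its log2 fold changes were -0.13, -0.09 and -0.25 in SAP against control, JZL184 against SAP and JZL184 against control, with SEs of 0.31, 0.27 and 0.29. Hsp90aa1 made up 11.01% and 17.1% of the summed FPKM of both genes in the control samples, 28.0%, 23.6%, 16.5% and 9.63% in SAP samples 1 to 4 and 16.6%, 8.43%, 8.00% and 11.5% in JZL184 samples 1 to 4. The mean share was 19.4% ± 8.05 with SAP alone against 11.1% ± 3.97 with JZL184 (SD, n = 4 each), a difference that did not exceed the spread (exact permutation test, p = 0.143).

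Hspb1, the small heat shock protein that holds unfolded clients and stabilizes actin, stood at 19.96 and 25.95 FPKM in the control samples. SAP samples 1 to 4 had 14.6, 11.2, 43.3 and 16.9 FPKM, and JZL184 samples 1 to 4 had 18.1, 31.4, 76.3 and 20.02 FPKM. The highest value of each treated group was that of sample 3, and the groups overlapped. Its log2 fold change was 0.88 in JZL184 against SAP (SE 0.56, adjusted p = 0.368) and 0.62 in JZL184 against control (SE 0.56, adjusted p = 0.504). From control to SAP it was -0.24 (SE 0.56, adjusted p = 0.831), and it was 0.14 once each library's trend on gene length was removed and 0.31 without SAP 1 and 2.

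The mitochondrial chaperonin genes were lower in all 4 JZL184 samples than in both control samples. In normalized counts, these groups were separate, in either direction, for 38.3% of all genes. Hspe1, the HSP10 lid of the chamber, stood at 627 and 794 FPKM in the control samples, at 503, 312, 760 and 521 FPKM in SAP samples 1 to 4, and at 468, 310, 214 and 204 FPKM in JZL184 samples 1 to 4. By FPKM, JZL184 samples 2 to 4 were below every SAP sample as well, and JZL184 1 was above SAP 2 only. JZL184 2 was barely below SAP 2 (309.71 against 311.85 FPKM). In normalized counts, JZL184 samples 2 to 4 overlapped the SAP samples for Hspe1. Hspd1, the HSP60 that forms the chamber, stood at 428 and 471 FPKM in the control samples, at 510, 358, 506 and 262 FPKM in SAP samples 1 to 4, and at 363, 198, 204 and 182 FPKM in JZL184 samples 1 to 4. Again JZL184 samples 2 to 4 were below every other sample, and JZL184 1 lay within the range of the SAP samples.

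In JZL184 against control, Hspe1 had a log2 fold change of -1.28 (SE 0.37), the smallest adjusted p of the 9 genes with edgeR (adjusted p = 0.0885), and was called by DESeq2 (adjusted p = 0.0269). Over the alternatives its adjusted p ran from 0.00235 to 0.566. Hspd1 had a log2 fold change of -0.97 (SE 0.33, adjusted p = 0.116). Without JZL184 1, both passed the threshold with edgeR, at -1.53 for Hspe1 (adjusted p = 0.0313) and -1.21 for Hspd1 (adjusted p = 0.0331, with 0.00593 to 0.603 over the alternatives). That fit called 12.0% of all genes. With all samples, both Hspe1 and Hspd1 gave an exact permutation p of 0.0667, the smallest possible. In JZL184 against SAP, the log2 fold changes were -0.67 for Hspe1 (SE 0.37, adjusted p = 0.311) and -0.63 for Hspd1 (SE 0.31, adjusted p = 0.266). Between SAP and control, they were -0.59 for Hspe1 (SE 0.40, adjusted p = 0.486) and -0.31 for Hspd1 (SE 0.34, adjusted p = 0.635). The ratio of Hspe1 to Hspd1 FPKM, the genes that share the element printed for chromosome 9, was 1.26 ± 0.231 in the JZL184 group and 1.34 ± 0.514 in the SAP group (SD, n = 4 each; exact permutation test, p = 0.8286), and 1.58 ± 0.157 in the control group (n = 2).

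**Figure D2:**
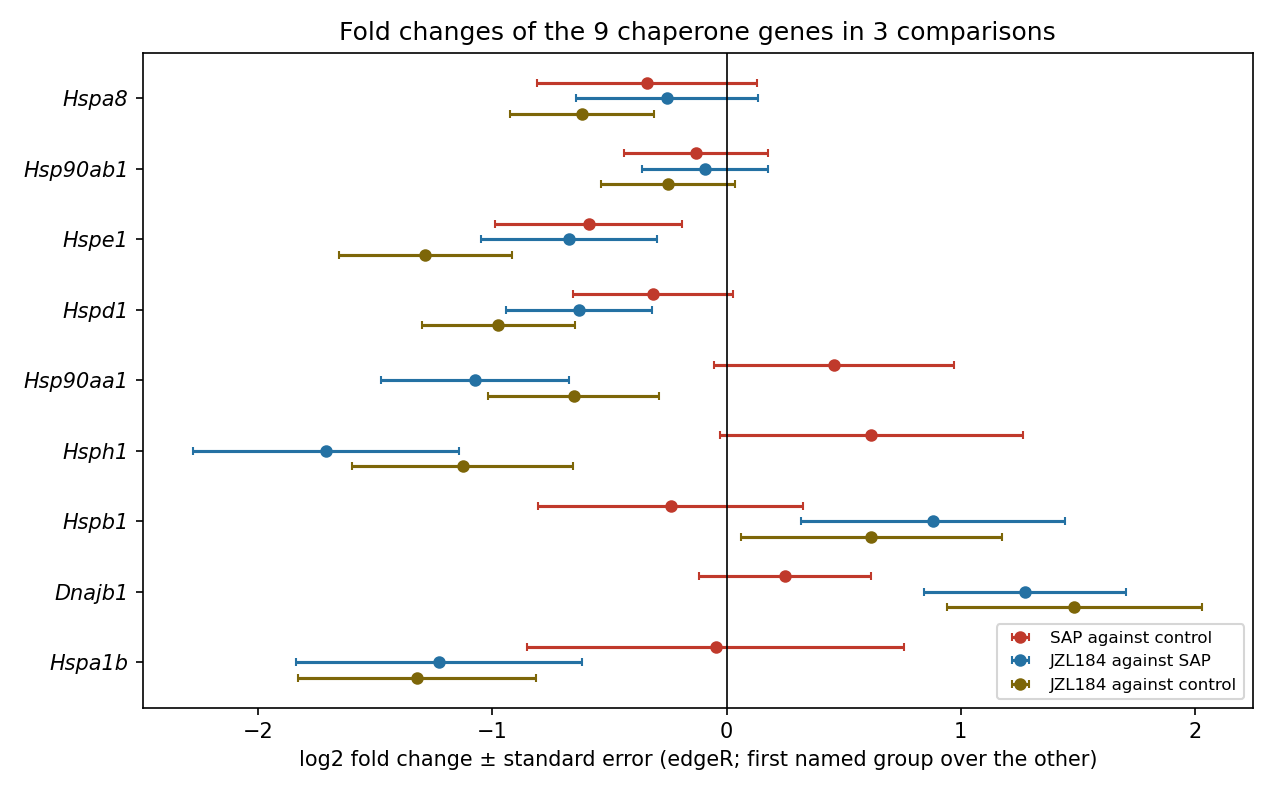
The horizontal axis gives the log2 fold change from edgeR, with the first named group over the other, and the vertical axis the 9 genes. Points are estimates and bars the standard error, with 1 colour per comparison. Hspe1 and Hspd1 lie left of 0 in all 3 comparisons, Dnajb1 lies right of 0, and Hsph1 and Hsp90aa1 lie right of 0 in SAP against control and left of it in the comparisons with JZL184.

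The comparison of SAP with control asks whether the chaperone genes differ in the ileum of rats with pancreatitis, and none of the 9 genes was called with edgeR, which required an adjusted p below 0.05 as well as a change past 2-fold up or 0.5-fold down, where 0% of all 16029 genes tested were. None had an unadjusted p below 0.05, against 9.09% of all genes, none had groups that did not overlap in normalized counts, against 23.2% of all genes, and none was called by DESeq2, against 0.893%. The median log2 fold change of the 9 genes was -0.13, against 0.06 over all genes, with 3 above 0 and 6 below. With SAP samples 3 and 4 left out, Hspb1 (log2 fold change -1.12, adjusted p = 0.0134) and Hspe1 (log2 fold change -1.09, adjusted p = 0.0176) were called, while 37.2% of all genes were. With SAP samples 1 and 2 left out no member was called, and 0.482% of all genes were. Over all alternatives, the adjusted p of Hspe1 ran up to 0.959 and that of Hspb1 to 0.99998.

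The comparison of JZL184 with SAP asks what the inhibitor was followed by in rats with the same pancreatitis. None of the 9 genes was called with edgeR, where 0% of all 15308 genes tested were. An unadjusted p below 0.05 was found for 3 of 9, Hsph1 and Hsp90aa1 lower and Dnajb1 higher, against 21.3% of all genes. None had groups that did not overlap, against 11.8% of all genes, and DESeq2 called Hsph1 alone, against 5.32% of all genes. The median log2 fold change was -0.63, against -0.05 over all genes, and 7 of the 9 genes were lower. Without JZL184 1, edgeR called Dnajb1 and 4.21% of all genes, and the groups did not overlap for Hsph1, Hspd1 and Dnajb1, against 26.4% of all genes. With SAP samples 3 and 4 left out, Hsp90aa1 (adjusted p = 0.0302, with up to 0.501 over the alternatives) and Hsph1 (adjusted p = 0.0385) were called, with 18.1% of all genes, and with SAP samples 1 and 2 left out none was.

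The comparison of JZL184 with control sets rats with both the pancreatitis and the inhibitor against rats with neither, so that their effects cannot be told apart. None of the 9 genes was called with edgeR, against 2.16% of all 15916 genes tested. An unadjusted p below 0.05 was found for 5 of 9, Hspa1b, Hsph1, Hspd1 and Hspe1 lower and Dnajb1 higher, against 26.3% of all genes. Normalized counts of JZL184 and control samples were fully separate for 5 of 9, Hspa8, Hsp90ab1, Hsph1, Hspd1 and Hspe1, all lower in JZL184, against 38.3% of all genes in either direction. By FPKM, Hspa8, Hspd1 and Hspe1 were separate and lower, Dnajb1 was separate and higher, and Hsp90ab1 and Hsph1 overlapped. DESeq2 called Hspe1 alone, against 8.04% of all genes. The median log2 fold change was -0.65, against 0.08 over all genes, with 7 of 9 genes lower. Without JZL184 1, Hsph1, Dnajb1, Hspd1 and Hspe1 were called, while 12.0% of all genes were, and the groups did not overlap for 8 of 9 genes, against 52.3% of all genes. Each pair of the 3 comparisons shares 1 group of samples, so they are not independent of each other.

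Sample by sample, the median of the 9 genes over the control mean was 0.80 in JZL184 1 and 0.44, 0.53 and 0.51 in JZL184 2, 3 and 4. It was 1.14, 0.80, 1.18 and 0.73 in SAP samples 1 to 4. In SAP 1, Hsph1 was at 3.43, Hspa1b at 2.72, Hsp90aa1 at 2.59 and Dnajb1 at 2.16 times the control mean, while Hspb1 was at 0.636 and Hspe1 at 0.708 times. In SAP 4 none of the 9 genes was above the control mean. In JZL184 4, Dnajb1 was at 4.14 times the control mean and Hspa1b at 0.17 times, the highest and lowest ratios of any sample.

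**Figure D3:**
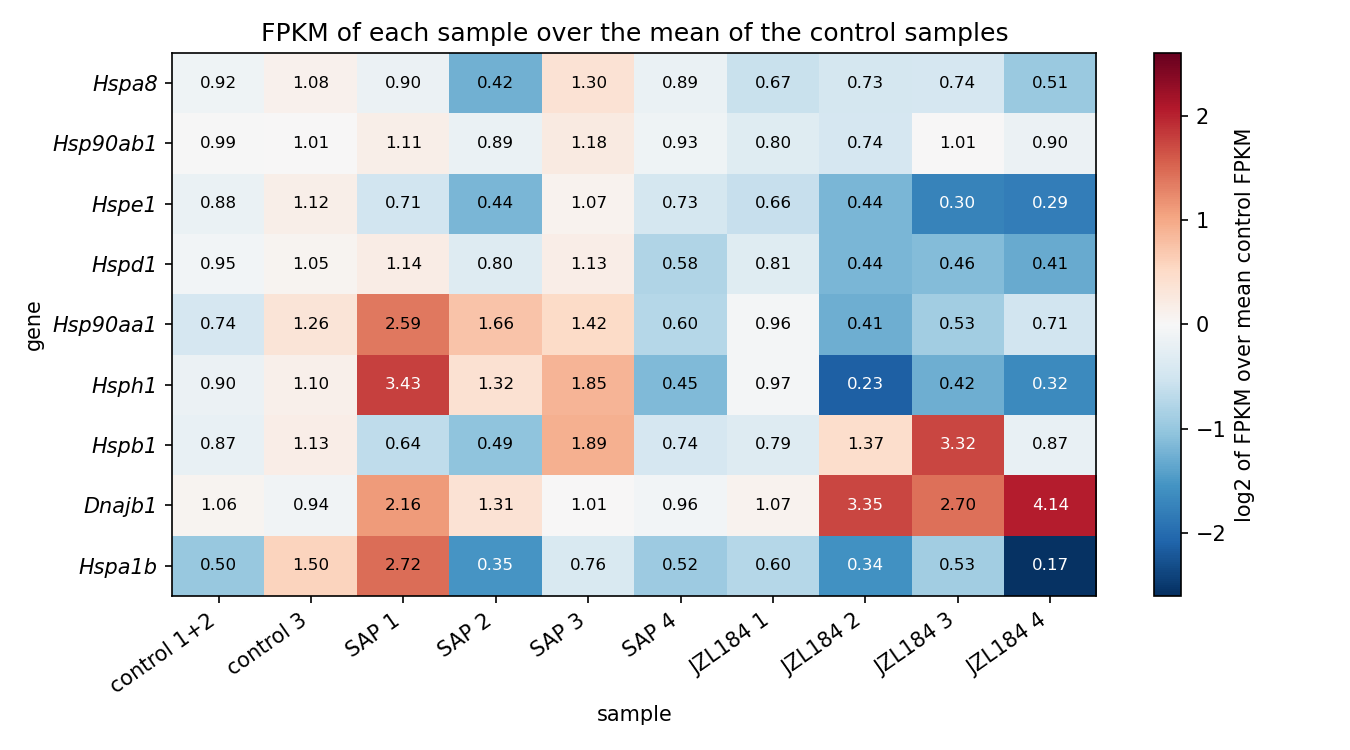
Rows are the 9 genes in the order of their median FPKM and columns the 10 samples. The number in each cell is the FPKM over the mean of the 2 control samples and the colour its log2 (blue lower, red higher). JZL184 samples 2 to 4 are blue for Hsph1, Hspd1 and Hspe1 and red for Dnajb1, and SAP 1 is red for Hsp90aa1, Hsph1, Dnajb1 and Hspa1b and blue for Hspb1 and Hspe1.

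Markers of cell types moved between the same samples, and their part in these differences was not tested. The summed FPKM of the 11 enterocyte markers found was 56117 to 57173 in the control samples, 19115 to 38748 in the SAP samples and 6324 to 48252 in the JZL184 samples. By sample, it was 19115, 19246, 37827 and 38748 in SAP 1 to 4 and 43537, 48252, 6324 and 45059 in JZL184 1 to 4. Not all of these markers followed the sum. In JZL184 3, Fabp2 was 266 FPKM against 5888 to 8101 in the other JZL184 samples, while Epcam was 3249 FPKM against 2802 to 3091. The summed FPKM of the 8 smooth muscle markers was 1926 to 2125, 885 to 2080.4 and 386 to 2148, and that of the 6 fibroblast markers 62.3 to 90.7, 62.7 to 147 and 31.0 to 61.1. The 8 neutrophil and macrophage markers summed to 8.93 to 11.9 FPKM in the control samples, 20.4 to 96.4 in the SAP samples and 28.2 to 259 in the JZL184 samples. Most of the highest sum, in JZL184 2, was S100a8 (149 FPKM) and S100a9 (95.6 FPKM). In JZL184 against SAP, 4 of the 8 markers were higher and 4 lower (median log2 fold change -0.38). Of the 8 markers, S100a8, S100a9, Mpo, Csf3r, Adgre1 and Cd163 had a mean below 1 FPKM in the control group. The 8 T and B cell markers summed to 233 to 268, 82.3 to 219 and 114 to 152 FPKM, the 6 goblet cell markers to 4328 to 4526, 2535 to 4447 and 1864 to 6236 FPKM, and the 5 endothelial markers to 20.5 to 21.3, 24.6 to 31.2 and 24.1 to 32.1 FPKM. The 4 erythrocyte markers summed to 130 to 322, 51.6 to 350.1 and 236 to 692 FPKM. Of the 5 exocrine pancreas markers found, Cpa1, Prss1, Ctrb1 and Cel had a mean below 1 FPKM in every group. In tissue RNA, fewer cells of a type and less RNA of a gene per cell cannot be told apart.

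Of 92 further genes of the chaperone network, 91 were found. In SAP against control 0 were called with edgeR and 3.37% of those tested had an unadjusted p below 0.05, 1 higher and 2 lower, against 9.09% of all genes. In JZL184 against SAP 0 were called and 19.1% had an unadjusted p below 0.05, 4 higher and 13 lower, against 21.3% of all genes. In JZL184 against control 2 of 90 tested were called, near the 2.16% of all genes. Here 25.6% had an unadjusted p below 0.05, 3 higher and 20 lower, a share near the 26.3% of all genes. DESeq2 called 7 of these genes in JZL184 against SAP, where it called 1283 genes, 5.32% of the 24116 with any read. It called 11 of them in JZL184 against control, where it called 1899 genes, 8.04% of the 23630 with any read. With its filter on low counts, edgeR tested 15308 and 15916 genes. The DESeq2 shares are thus over a wider set, with genes of low counts, and do not show that chaperone genes were called more often.

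The called genes were both FKBP cochaperones of HSP90 that bind steroid receptor complexes, and they changed in opposite directions. Fkbp5, a textbook glucocorticoid target, stood at 10.7 and 13.1 FPKM in the control samples, at 33.6, 36.8, 15.9 and 30.6 FPKM in SAP samples 1 to 4 and at 61.5, 63.5, 62.9 and 76.1 FPKM in JZL184 samples 1 to 4. No group overlapped another, JZL184 1 included. It rose in JZL184 against control by a log2 fold change of 2.45 (SE 0.31, adjusted p = 0.0156), and in JZL184 against SAP its value was 1.35 (SE 0.29, adjusted p = 0.0851). Fkbp4 stood at 135 and 125 FPKM in the control samples, at 106, 81.8, 131 and 72.9 FPKM in the SAP samples and at 59.3, 51.4, 44.0 and 41.2 FPKM in the JZL184 samples. It fell in JZL184 against control, with a log2 fold change of -1.45 (SE 0.27, adjusted p = 0.0421). Leaving out control 1-2 took these calls away (adjusted p = 0.350 for Fkbp5 and 0.509 for Fkbp4), as did leaving out control 3 (0.154 and 0.180), fits in which the remaining control was assumed to vary like the JZL184 samples. Leaving out JZL184 2 gave 0.0540 and 0.0794, and leaving out JZL184 4 gave 0.111 for Fkbp4. Of the 10 HSP90 cochaperones, 9 were lower in JZL184 against control, with a median log2 fold change of -0.96 against 0.08 over all genes, and 6 of these had an unadjusted p below 0.05, against 12.5% of all genes lower at that p.

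In the other chaperone lists, no gene was called with edgeR in any comparison, and the gene with the smallest p in JZL184 against control is given for each. Of the 10 mitochondrial chaperones and proteases, 8 were lower (median -0.48), with Clpb, a mitochondrial disaggregase, at -1.20 (SE 0.29, adjusted p = 0.0661). Of 15 ER chaperones 10 were lower (median -0.39), with Sdf2l1 at -1.14 (SE 0.27, adjusted p = 0.0631). Of 13 subunits and cofactors of the cytosolic chaperonin CCT 9 were lower (median -0.31), with Cct5 at -0.59 (SE 0.26, adjusted p = 0.197). Of 11 J-domain proteins 5 were lower (median 0.15), with Dnaja4 at -1.36 (SE 0.42, adjusted p = 0.101). Of 9 other HSP70 family genes 6 were lower (median -0.24), with Hspa1l at -0.96 (SE 0.53, adjusted p = 0.283). Of 6 small heat shock proteins 3 were lower, with Hspb2 at -1.91 (SE 0.50, adjusted p = 0.0738). Of 8 nucleotide exchange and BAG cochaperones 4 were lower, with the ubiquitin ligase Stub1 at -0.94 (SE 0.29, adjusted p = 0.0977). Among 10 other HSF1 targets 4 were lower and 6 higher (median 0.02), with Serpinh1 at -1.53 (SE 0.46, adjusted p = 0.0940). Of 5 heat shock factors and regulators tested 1 was lower, Hsf1 itself at -0.84 (SE 0.31, adjusted p = 0.137). Hsf1 stood at 5.72 and 5.06 FPKM in the control samples, at 5.35, 3.57, 5.78 and 4.60 FPKM in SAP samples 1 to 4 and at 4.19, 2.36, 3.67 and 2.33 FPKM in JZL184 samples 1 to 4.

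In JZL184 against SAP, 6 of 10 other HSF1 targets were higher and 4 lower (median log2 fold change 0.33). With edgeR, 3 of them in each direction had an unadjusted p below 0.05, against 21.3% of all genes in either direction. The smallest p of this list was that of Serpinh1, a collagen chaperone of the ER and a target of HSF1. It stood at 88.8, 49.5, 121 and 29.6 FPKM in SAP samples 1 to 4, at 28.2, 8.86, 11.01 and 8.01 FPKM in JZL184 samples 1 to 4 and at 36.1 and 41.1 FPKM in the control samples. Every JZL184 sample was below every SAP and control sample, with a log2 fold change against SAP of -2.23 (SE 0.51, adjusted p = 0.0876). Fibroblast marker sums were also lowest in the JZL184 group. The ER chaperone Hyou1 had -1.62 (SE 0.52, adjusted p = 0.146). Of the other HSP70 family, Hspa4l had -1.39 (SE 0.52, adjusted p = 0.184), near the floor at 0.05 to 0.45 FPKM in the SAP and JZL184 samples. Hspa4, a well expressed gene of the same list, had 0.03 (SE 0.23, adjusted p = 0.951). The smallest p of the remaining lists belonged to Dnaja4 (-0.76), Hspb7 (1.18), Bag4 (-1.10), Hsf4 (0.82), Cct6a (-0.42) and Clpb (-0.59). In SAP against control, the smallest p of the lists given here belonged to Fkbp5 (1.12), Hspa4l (1.43), Dnajb4 (1.002), Hspb6 (-0.88), Bag4 (1.25), Sirt1 (1.11), Cct7 (-0.65), Clpx (0.71) and Canx (1.07).

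The cold-inducible RNA-binding genes, known to be induced by mild cold, were both higher in every JZL184 sample than in any other sample. Rbm3 stood at 88.8 and 185 FPKM in the control samples, at 184, 250.02, 157 and 386 FPKM in SAP samples 1 to 4 and at 715, 685, 704 and 796 FPKM in JZL184 samples 1 to 4. It rose in JZL184 against control by a log2 fold change of 2.39 (SE 0.38, adjusted p = 0.0259), and its value was 1.70 in JZL184 against SAP (SE 0.36, adjusted p = 0.0851). The call was lost without control 1-2 (adjusted p = 0.388), control 3 (0.149), JZL184 2 (0.0648) or JZL184 4 (0.0722). From control to SAP it was 0.71 (SE 0.50, adjusted p = 0.497). Cirbp stood at 10.0 and 14.1 FPKM in the control samples, at 5.44, 8.03, 9.66 and 21.1 FPKM in the SAP samples and at 23.9, 41.4, 51.0 and 41.0 FPKM in the JZL184 samples. Its log2 fold change was 1.69 in JZL184 against control (SE 0.38, adjusted p = 0.0617) and was called by DESeq2.

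**Figure D4:**
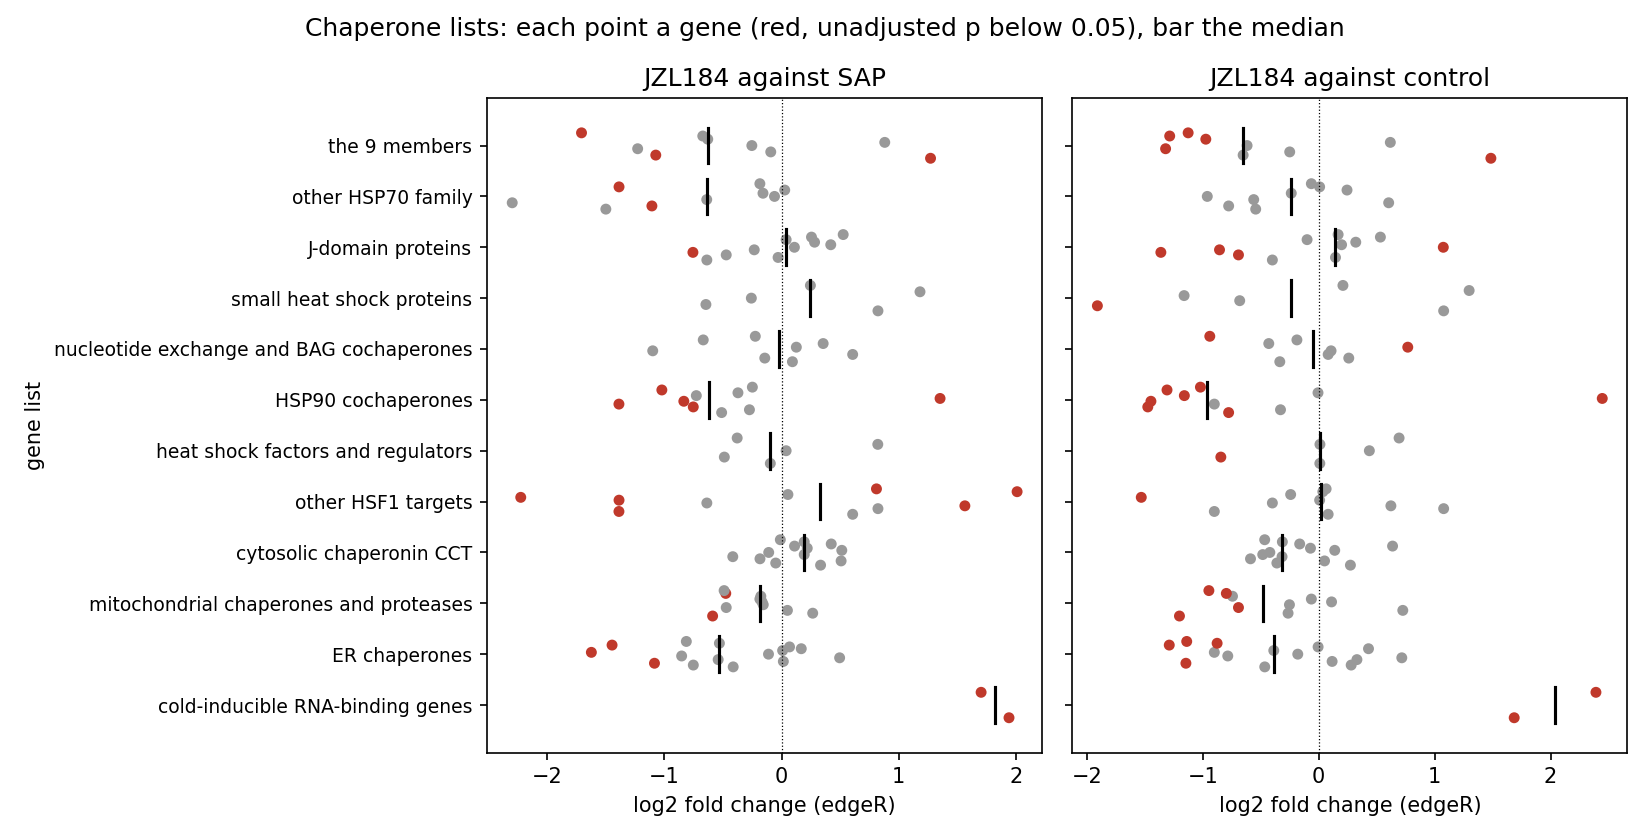
Points are genes of each list at their log2 fold change from edgeR (horizontal axis), for JZL184 against SAP on the left and JZL184 against control on the right. Red points have an unadjusted p below 0.05 and black bars mark the list's median. The medians of the 9 members lie at -0.63 and -0.65, those of the HSP90 cochaperones at -0.62 and -0.96, and those of the cold-inducible genes at 1.82 and 2.04.

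Over the 10 samples and 11483 genes with a mean of at least 100 reads, the genes most like the mean of the scaled log2 CPM (read counts scaled to library size) of the 9 members were Ahsa2 (Pearson r = 0.91), a cochaperone that activates the HSP90 ATPase, Tspan31 (0.90), the ER chaperone Calr (0.89), Pdhx (0.87) and Fastkd5 (0.87). These correlations are descriptions over samples of 3 groups that share depth and tissue composition. Of the members themselves, 7 correlated with that mean at 0.53 to 0.83, Hspb1 at 0.19 and Dnajb1 at -0.40. Each member is itself part of that mean, which raises its correlation, so these values do not show that the members vary together. Mgll, which encodes MAGL, the enzyme that JZL184 inhibits, stood at 4.26 to 5.83 FPKM in the control samples, 2.74 to 4.93 in the SAP samples and 1.56 to 10.5 in the JZL184 samples, with adjusted p of 0.462, 0.625 and 0.855 in the 3 comparisons. Its transcript level is no measure of the enzyme's inhibition.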

How the data were processed

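Stranded mRNA libraries of ileal RNA from 11 rats were used, in the groups of the labels. Per the labels and methods, the authors trimmed reads with FASTX-Toolkit, removed reads under 16 nt, aligned the rest to mRatBN7.2 with HISAT2, allowing up to 4 mismatches, and deposited a count of uniquely aligned reads per gene, without normalization. The authors also deposited FPKM, scaled by gene length and library size, to 2 decimals. The counting tool is not given in the sources used here, nor is the annotation. Unmapped columns numbered 0.

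Counts were tested with edgeR 4.0.16 (quasi-likelihood test, TMM, minimum count 10) in R 4.3.3, with Benjamini-Hochberg adjustment over all genes tested, a threshold of 0.05 and fold changes above 2 or below 0.5. FPKM were compared with two-sided exact permutation tests. Control libraries 1 and 2 were summed (counts) or averaged (FPKM). Alternatives used DESeq2 1.42.0 and limma 3.58.1. The shares of all genes called by DESeq2 are over genes with any read, without edgeR's filter on low counts. Tests were tested on simulated data with 200 changed genes. At 26341299 or more reads per library, counting error was small against the spread between rats.

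Members and lists were chosen with earlier results of these data known. Named genes were all members, called genes and the smallest p of each list and comparison, the 5 genes most like the members' mean, and Mgll. Others with values (Cirbp, Hspa4, single cell type markers, the Hspa1b copy) were named after their values were seen. Ratios were added later. Splicing was not analysed here, and 1 gene that the rule names is not reported here.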

Additional observations from a re-analysis of the deposited data

Results flagged for a closer look

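Of 20 sets of 4 values examined (the 9 members and LOC108348108 in the SAP and JZL184 groups), 2 held a sample far from the other 3, where chance gives about 1 in 20. Hspd1 was 362.52 FPKM in JZL184 1, against 204.38 FPKM in the next sample, and this gap was 0.876 of the group's whole range. LOC108348108 was 10.64 FPKM in SAP 1, against 2.11 FPKM in the next, with a gap of 0.854 of the range.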

How the results depend on the processing

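No member was called in the main tests, and these counts changed as follows. In SAP against control, 2 members were called without SAP libraries 3 and 4 (37.2% of all genes). In JZL184 against SAP, 1 was called with DESeq2 (5.32% of all genes), 2 without SAP libraries 3 and 4 (18.1%), and 0 to 1 when each sample was left out (1 without JZL184 1, 4.21%). In JZL184 against control, 1 was called with DESeq2 (8.04% of all genes), 4 with limma-voom and sample quality weights (18.3%), 2 with the control libraries kept separate (18.1%), 3 with these and DESeq2 (14.7%), and 0 to 4 with each sample left out (4 without JZL184 1, 12.0%). Over the samples left out, the members whose groups did not overlap numbered 0 to 5 in SAP against control (5 without SAP 3, 2 without SAP 4). They numbered 0 to 3 in JZL184 against SAP (3 without JZL184 1, 2 without SAP 4) and 5 to 8 in JZL184 against control (8 without JZL184 1). Without JZL184 1, the groups did not overlap for 26.4% of all genes against SAP and 52.3% against control. For the other samples left out the share of all genes is not given here. Groups of fewer samples overlap less easily, so these counts are not read as a result about the members. Members with an exact permutation p below 0.05 numbered 0 to 2 in JZL184 against SAP and 1 in JZL184 against control with separate control libraries. The share of all genes at that p is not given here. The causes were not tested. The sign of some log2 fold changes turned, none of them past the threshold. In SAP against control, Hspa1b was 0.00697 with the replicate block, 0.21 with separate control libraries, 0.20 with these and DESeq2, 0.36 without SAP 3 and 4, 0.11 with the reads of LOC108348108 added, and -0.97 to 0.84 with each sample left out. Hspb1 was 0.14 with gene length offsets. Without SAP 1 and 2, Hspa8 was 0.0577, Hsp90aa1 -0.0668, Hsp90ab1 0.00523, Dnajb1 -0.0906, Hspb1 0.31, LOC108348108 -0.16 and Cirbp 0.32. Leaving out samples gave -0.0216 to 0.40 for Dnajb1, -0.0684 to 2.33 for LOC108348108 and -0.85 to 0.0140 for Cirbp. In JZL184 against SAP, Mgll was -0.37 with limma-voom and -0.28 to 0.72 with samples left out, Bag4 was 0.0286 without SAP 1 and 2, Hspa8 and Hsp90ab1 were 0.29 and 0.0576 without SAP 3 and 4, and Hspa8 was -0.50 to 0.00747 with samples left out. In JZL184 against control, LOC108348108 was 0.0630 with the replicate block and -1.42 to 0.39 with samples left out, and Mgll -0.92 to 0.0925. Numbers do not pair the samples: deviations of same-numbered JZL184 and SAP libraries correlated at -0.45 to 0.12, and 1 of 4 JZL184 libraries correlated best with the SAP library of its own number. The replicate block called 0 members in each comparison, with all genes called numbering 1, 0 and 1488. Over all genes called, other settings gave 0 to 5859 (SAP against control), 0 to 2912 (JZL184 against SAP) and 0 to 3482 (JZL184 against control). The 2 control samples limit every comparison with control.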
